A study of Mus musculus with 36 samples.

Results

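Lyz1 and Lyz2, the 2 lysozyme genes of mouse phagocytes, were followed in 36 RNA-seq libraries as 2 of the 24421 genes in each count file. The pair was picked by name after Lyz1 had stood out in the early against baseline comparison of aortic macrophages, so the stage values of the aorta are given below as a description, without a test. All mice carried the Apoe knockout ("Apoe ko"), which leaves them without apolipoprotein E, and no library came from a mouse with a working Apoe gene. The advanced groups had eaten a high cholesterol diet for 6 months and the early groups for 1 month, whereas the baseline groups had been kept on chow. In each of these 3 stages 4 libraries were made from macrophages of collagenase-digested aortas, 4 from macrophages of peritoneal lavage and 4 from monocytes taken jointly from blood and spleen. All cells were sorted by flow cytometry into lysis buffer. Sorting markers, age and sex are not given in the sources used here. Nor is it said whether each library had its own mouse, so the p-values below measure the spread between these libraries.

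Lysozyme is a muramidase: it cuts the sugar backbone of peptidoglycan, the mesh that holds the bacterial cell wall together, and it is kept in granules and phagosomes or secreted. Humans have a single lysozyme gene of this type. The mouse has a tandem pair, in which Lyz2 (also called lysozyme M) is the form of macrophages, monocytes and neutrophils and Lyz1 (also called lysozyme P) is best known from Paneth cells of the small intestine. The Lyz2 locus drives LysM-Cre, a common tool for deleting genes in myeloid cells.

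Both genes lie on the minus strand of chromosome 10 in the mouse assembly GRCm38, the same sequence as the mm10 build named in the submitters' processing notes. Lyz1 spans chr10:117287797-117292868 and Lyz2 spans chr10:117277331-117282321, each with 4 exons and a coding sequence of 447 bases in the GENCODE annotation. The coding sequences differ at 22 of 447 positions, an identity of 95.1%, and the 3′ UTRs differ at 29 of 785 aligned positions. Sequencing was paired-end, so a pair of reads tells the genes apart only where either read covers such a position. The stretch of 75 coding bases with the most differences lies in exon 1, at chr10:117292707-117292781 in Lyz1 and chr10:117282111-117282185 in Lyz2. It is shown with the 12 differing bases in capitals, because reads from it can be assigned:
Lyz1, exon 1: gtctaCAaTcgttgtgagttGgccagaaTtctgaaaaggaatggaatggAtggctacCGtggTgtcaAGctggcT
Lyz2, exon 1: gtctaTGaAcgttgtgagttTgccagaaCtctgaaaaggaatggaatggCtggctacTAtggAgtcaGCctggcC
The following 75 bases, across the junction of exons 2 and 3, are the same in both genes, so a read that lies within them fits either:
Lyz1 and Lyz2, exons 2 to 3: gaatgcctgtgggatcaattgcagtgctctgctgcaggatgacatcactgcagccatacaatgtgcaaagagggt

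Of all stretches of 50 bases in the Lyz1 transcript, 16.1% also occur unchanged in Lyz2. For 75 bases the share was 6.22%, for 100 bases 2.06%, and no stretch of 150 bases was shared. The longest identical run is 118 bases, in the coding sequence. None of these stretches was found in a transcript of any other gene. The shares are for single reads, and a pair can also be assigned by its other read. Read length, strand use and the handling of reads that fit both copies are not given in the sources used here, so the division of reads between the genes is uncertain to a degree that the files do not show.

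**Figure D1:**
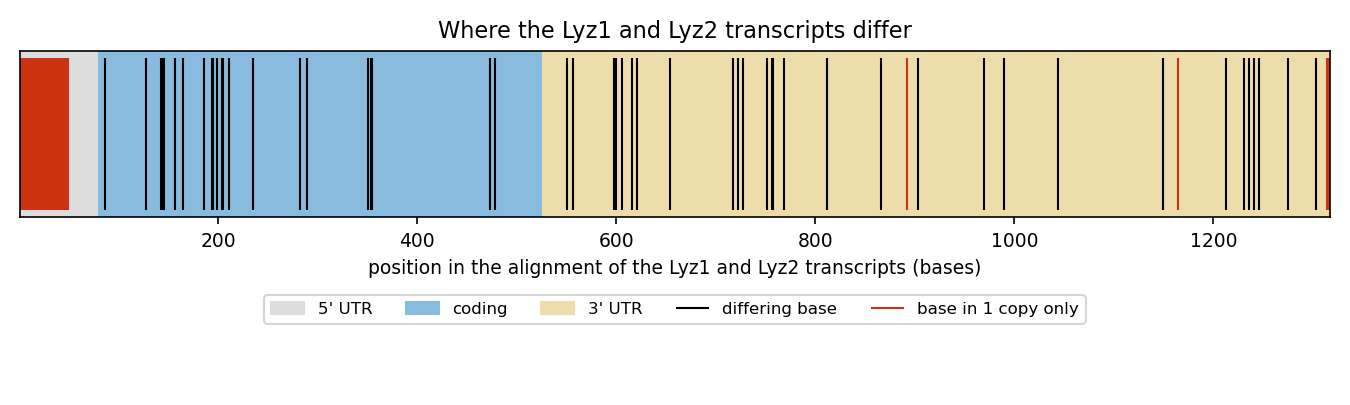
Positions at which the Lyz1 and Lyz2 transcripts of the GENCODE annotation differ, along their alignment in bases from the 5′ end; black lines are differing bases, red lines are bases present in 1 transcript only, and the background marks UTRs and coding sequence. The 51 differing bases are spread over the coding sequence and the 3′ UTR, with the longest unbroken identical run, 118 bases, inside the coding sequence.

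The promoters are less alike than the transcripts. They are shown from position -250 to -50, counted from the start site that RefSeq gives for each gene (GRCm38.p6, minus strand), at chr10:117292918-117293118 for Lyz1 and chr10:117282322-117282522 for Lyz2, because the levels below differ most between the genes. Capitals mark bases that differ or are missing in the other copy:
Lyz1, promoter: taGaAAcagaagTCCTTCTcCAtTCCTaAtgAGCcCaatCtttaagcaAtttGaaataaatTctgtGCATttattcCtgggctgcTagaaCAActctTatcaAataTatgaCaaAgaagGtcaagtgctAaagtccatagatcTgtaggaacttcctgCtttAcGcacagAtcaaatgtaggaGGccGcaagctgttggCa
Lyz2, promoter: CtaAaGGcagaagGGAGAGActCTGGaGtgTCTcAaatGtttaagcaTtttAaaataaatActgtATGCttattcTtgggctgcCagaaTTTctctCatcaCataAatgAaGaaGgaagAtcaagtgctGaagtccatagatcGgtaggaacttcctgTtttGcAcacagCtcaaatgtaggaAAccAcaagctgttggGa
These stretches differ at 48 of 199 aligned positions, an identity of 75.9%. Within them the 76 aligned positions nearer the start were 86.8% identical and the 123 farther from it 69.1%, while the 49 bases next to the start, not shown, were the same in both genes. GENCODE starts Lyz2 at 117282321 and RefSeq at 117282272, so GENCODE places these 49 bases in the Lyz2 5′ UTR. Counted from the GENCODE start, the Lyz2 positions given here would lie 49 bases nearer to it. The ETS motif AGGAAG, read on both strands, begins at -99 in both genes and also at -137 in Lyz2; it occurs in 29.5% of the 32851 mouse promoters searched over the same window length. The C/EBP motif TTGCNNAA at -209 and the NF-Y motif CCAAT at -216 occur in the Lyz1 stretch and not in that of Lyz2, and 9.56% and 33.8% of promoters hold them. GAGGAA (23.3% of promoters), TGANTCA (6.75%) and TATAAA (12.4%) were found in neither.

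Library totals ran from 5.28 to 14.8 M counted reads (M, mega) in the 12 baseline libraries and from 0.943 to 2.63 M in the 24 early and advanced ones, so depth and the baseline stage cannot be told apart. Aortic baseline replicates 3 and 4, aortic advanced replicate 1, monocyte advanced replicate 3 and peritoneal early replicates 1 and 2 are called below the libraries that stood apart. In mean rank correlation over genes with a mean of at least 1 CPM, all of these were the lowest of their groups. Monocyte advanced replicate 3 (0.965) lay close to the other 3 (0.966 to 0.968) and had the highest sum of neutrophil markers, 40961 CPM. Mean rank correlations with the other libraries of the group were 0.617 to 0.913 in the aorta, 0.916 to 0.989 in the peritoneum and 0.961 to 0.987 in monocytes. The summed level of 8 macrophage markers was 4140 to 6255 CPM (the reads of a gene scaled to the counted reads of its library) in aortic, 5689 to 9572 CPM in peritoneal and 2708 to 4037 CPM in monocyte libraries. Apoe, the deleted gene, read 2.65 to 111.8 CPM in aortic, 3.17 to 107.8 CPM in peritoneal and 2.65 to 42.8 CPM in monocyte libraries, and the deleted exons are not given in the sources used here. Neutrophil markers, 12 genes, summed to 650.2 to 1124 CPM in the baseline monocyte libraries, 4282 to 14648 CPM in the early and 5380 to 40961 CPM in the advanced ones. T and NK cell markers, 5 genes, summed to 11.95 to 38.5 CPM at baseline, 37.1 to 386.9 CPM early and 10.6 to 24.4 CPM advanced in monocytes. B cell markers, 4 genes, summed to 13.02 to 37.0 CPM, 32.1 to 124.2 CPM and 10.1 to 18.5 CPM in the same order. The part of these cells in the lysozyme levels of monocytes was not tested.

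Lyz2 was an abundant transcript in every library, and Lyz1 was the variable member of the pair. Over the 36 libraries Lyz2 ranged from 4297 to 32931 CPM, a 7.66-fold range, and Lyz1 from 15.1 to 2454 CPM, a 163-fold range. Together they took 0.438% to 3.38% of all counted reads. Lyz2 sorted by population: peritoneal macrophages held most, monocytes less and aortic macrophages least, at each stage. Lyz1 followed another order, with peritoneal macrophages and baseline aortic macrophages high, early and advanced aortic macrophages between, and monocytes low. In bulk samples fewer cells of a type and less RNA per cell cannot be told apart.

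**Figure D2:**
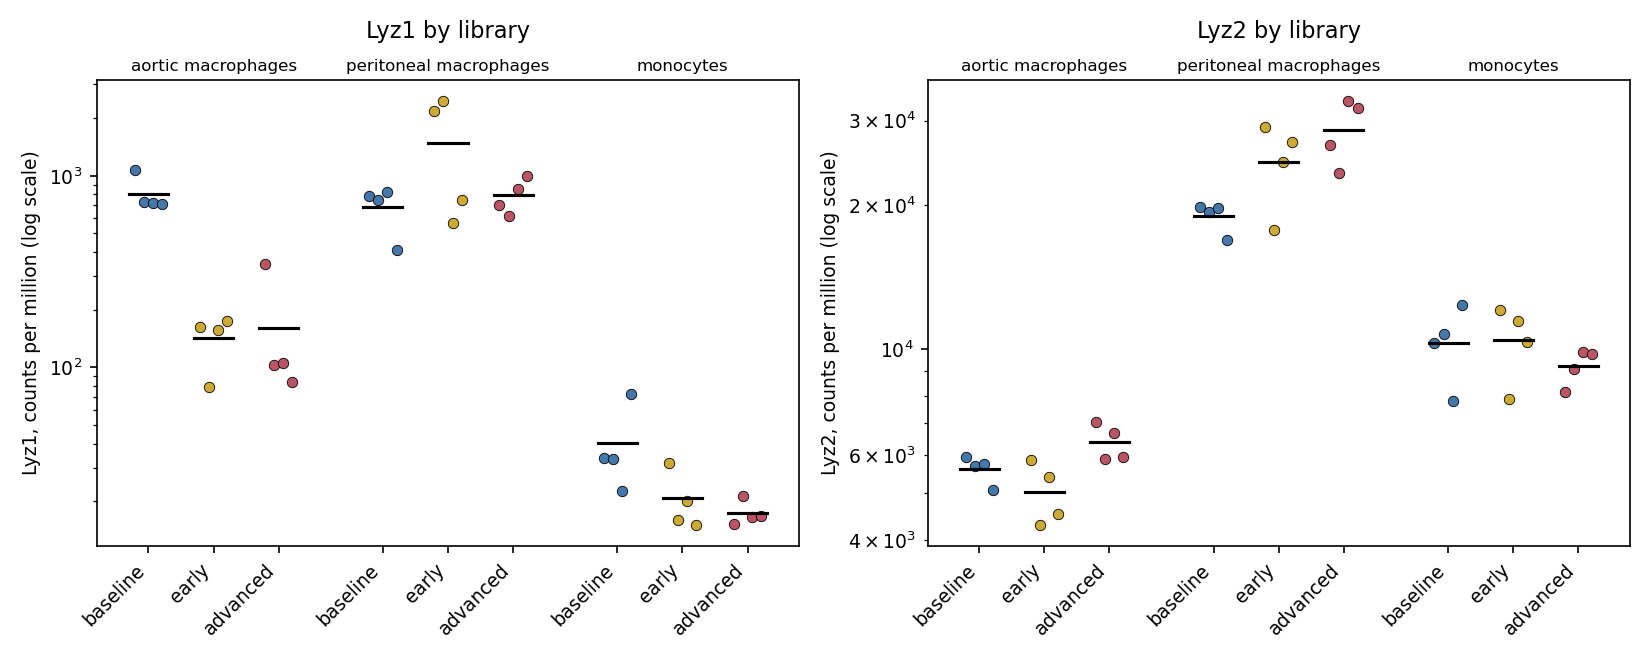
Lyz1 (left) and Lyz2 (right) in CPM on log axes for the 36 libraries, 4 per group, in aortic macrophages, peritoneal macrophages and monocytes at baseline, early and advanced stages; points are libraries and bars are group means. Lyz1 spans 15.1 to 2454 CPM and Lyz2 4297 to 32931 CPM, and the aortic baseline libraries lie above all aortic early and advanced libraries for Lyz1 but not for Lyz2.

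Ordered by group mean, Lyz1 was highest in early peritoneal macrophages at 1486 ± 964 CPM (SD, n = 4, as for all group means here). That place rests on early replicates 1 and 2, since replicates 3 and 4 had 569.8 and 748.5 CPM, within the range of peritoneal baseline. Aortic baseline (808.3 ± 177 CPM), peritoneal advanced (792.2 ± 170 CPM) and peritoneal baseline (690.4 ± 188 CPM) came next, and neighbours among these 4 groups overlapped. Aortic advanced (159.7 ± 124.97 CPM) and aortic early (143.2 ± 43.3 CPM) overlapped with each other and with no neighbour above or below. Monocytes closed the order with 40.5 ± 21.9 CPM at baseline, 20.7 ± 7.65 CPM early and 17.4 ± 2.61 CPM advanced, with overlap between neighbours.

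For Lyz2 the order fell into 3 blocks without overlap. Peritoneal macrophages led with 28675 ± 4509 CPM at the advanced stage, 24626 ± 4920 CPM early and 18946 ± 1360 CPM at baseline. Monocytes followed with 10425 ± 1851 CPM early, 10311 ± 1896 CPM at baseline and 9215 ± 794 CPM advanced. Aortic macrophages were lowest with 6400 ± 560 CPM advanced, 5628 ± 374 CPM at baseline and 5031 ± 743 CPM early. Within each population neighbours in the order overlapped.

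In aortic macrophages Lyz1 read 1074, 728.8, 718.9 and 711.5 CPM in the baseline libraries. The early libraries had 162.6, 79.3, 156.0 and 174.8 CPM, and the advanced libraries had 346.6, 102.7, 105.7 and 83.9 CPM. All 4 early and all 4 advanced libraries lay below the lowest baseline library, while early and advanced libraries overlapped. The fitted log2 difference in Lyz1 was -2.36 ± 0.41 (SE) for early minus baseline, -2.23 ± 0.41 for advanced minus baseline and 0.12 ± 0.40 for advanced minus early. These comparisons share libraries, and since the first of them led to the choice of Lyz1 they carry no test here. Among the 9920 genes tested in the aorta, 0.373% were called for early minus baseline, 0.0403% for advanced minus early and 0.585% for advanced minus baseline. Few changes could be called there: in counts simulated for early minus baseline, edgeR recovered 0% of 2-fold and 7.58% of 4-fold changes. Without the libraries that stood apart, advanced minus baseline was -3.004 and advanced minus early -0.55, and leaving out advanced replicate 1 alone gave -2.92 and -0.56.

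Lyz2 in the same aortic libraries read 5965, 5695, 5759 and 5095 CPM at baseline. The early libraries had 5885, 4297, 5407 and 4535 CPM, and the advanced libraries 7045, 5909, 6692 and 5954 CPM. Baseline libraries overlapped with both later stages, unlike for Lyz1. The log2 differences in Lyz2 were -0.04 ± 0.16 for early minus baseline, 0.30 ± 0.16 for advanced minus baseline and 0.35 ± 0.16 for advanced minus early. With both rows summed, which does not depend on how reads were divided, the corresponding differences were -0.20 ± 0.16, 0.15 ± 0.16 and 0.34 ± 0.16.

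The share of Lyz1 among the lysozyme reads differed in the same direction. In aortic macrophages it was 15.3%, 11.3%, 11.1% and 12.3% at baseline. Early libraries had 2.69%, 1.81%, 2.80% and 3.71%, and advanced libraries 4.69%, 1.71%, 1.55% and 1.39%. No early or advanced library reached the lowest baseline share. Each value rests on 5741 to 68586 lysozyme reads, and the widest exact 95% binomial interval in the aorta, that of advanced replicate 1, ran from 4.23% to 5.18% (counting error only). After thinning every library to the same number of reads, shares spanned 11.1% to 15.6% in baseline libraries, 1.80% to 3.56% in early ones and 1.37% to 4.59% in advanced ones, again without overlap between baseline and the later stages. Scaled by transcript length, the mean share of Lyz1 was 12.9% at baseline, 2.87% early and 2.43% advanced.

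**Figure D3:**
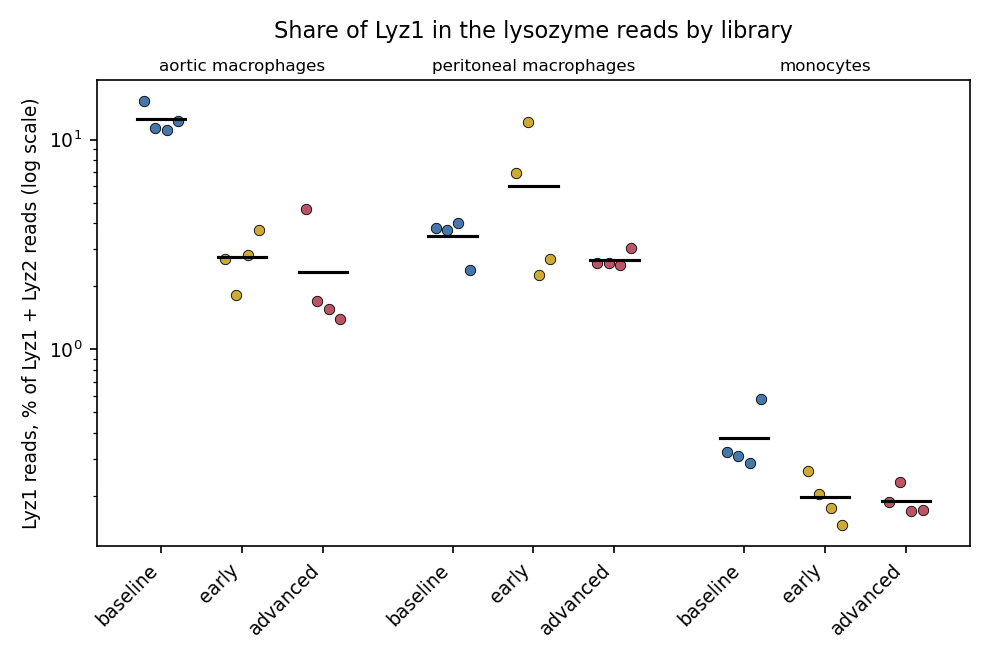
Lyz1 reads in percent of Lyz1 plus Lyz2 reads, on a log axis, for the 36 libraries by population and stage; points are libraries and bars are group means. The 4 aortic baseline libraries lie between 11.1% and 15.3%, and all monocyte libraries lie between 0.145% and 0.582%.

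Other cell content of the aortic libraries moved with stage in part. Fibroblast markers, 7 genes such as the collagen gene Col1a1 and the decorin gene Dcn, summed to 8.89 to 287.2 CPM at baseline, 510.1 to 1058 CPM early and 140.2 to 379.2 CPM advanced. Their early range lay above the other 2 and none of the 7 was without a count in any stage. Macrophage markers overlapped at 4208 to 5995 CPM, 4140 to 5258 CPM and 4706 to 6255 CPM, in the same order of stages. Monocyte markers summed to 4483 to 5917 CPM at baseline, 5212 to 5594 CPM early and 3702 to 4412 CPM advanced. The part of these cells in the Lyz1 values was not tested. Of 10 Paneth cell markers 8 had no count in any library, and the angiogenin gene Ang4 and the matrilysin gene Mmp7 had 1 count each.

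Peritoneal macrophages had far more Lyz1 and more Lyz2 than monocytes. Lyz1 was 411.9 to 2454 CPM in the 12 peritoneal libraries (median 764.3) and 15.1 to 72.5 CPM in the 12 monocyte libraries (median 20.7), without overlap. The log2 difference averaged over stages was 5.44 ± 0.26, 43.4-fold, with an adjusted p of 4.01e-15 by edgeR's quasi-likelihood test with Benjamini-Hochberg adjustment over all genes, the test used throughout. Lyz2 was 16923 to 32931 CPM in peritoneal and 7797 to 12377 CPM in monocyte libraries, again without overlap. Its log2 difference was 1.45 ± 0.11, 2.74-fold, with an adjusted p of 1.43e-11. In this comparison 67.0% of 10343 genes were called, so that a call by itself says little and the sizes are the result. The summed rows gave 1.51 ± 0.10 (adjusted p = 4.10e-12).

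Lyz1 made up 2.26% to 12.1% of lysozyme reads in peritoneal macrophages and 0.145% to 0.582% in monocytes. The mean shares differed by 3.80 percentage points (two-sided permutation test, p = 5.83e-06, adjusted over 9 comparisons 5.25e-05). Monocyte libraries held 8553 to 127393 Lyz2 reads beside 20 to 746 Lyz1 reads. Whatever the read assignment did in monocytes, the Lyz2 reads that fell into the Lyz1 row were therefore at most 0.582% of the lysozyme reads there.

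At the advanced stage aortic macrophages stood above monocytes for Lyz1 and below peritoneal macrophages for both genes. Against monocytes, with 15.2, 21.2, 16.6 and 16.7 CPM, the log2 difference in Lyz1 was 3.34 ± 0.45 (adjusted p = 1.85e-04; 30.4% of 8925 genes called). Against peritoneal macrophages, with 702.1, 615.1, 850.1 and 1002 CPM, it was -2.46 ± 0.41 (adjusted p = 7.13e-04; 27.7% of 9285 genes called). Neither pair of groups overlapped. Lyz1 stayed called against both without aortic advanced replicate 1, at 2.67 and -3.11.

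Lyz2 was 2.26 ± 0.17 log2 units lower in advanced aortic than in advanced peritoneal macrophages (adjusted p = 1.59e-06). The peritoneal libraries had 26643, 23304, 32931 and 31820 CPM and the aortic ones at most 7045 CPM. Against advanced monocytes, with 8148, 9071, 9846 and 9794 CPM, all 4 aortic libraries were lower in CPM, and the scaled log2 difference was -0.35 ± 0.12 (adjusted p = 0.0575, 95% interval -0.59 to -0.10), which missed the threshold of 0.05. DESeq2 gave -0.38 with an adjusted p of 0.00757. In counts simulated for this comparison, 23 of 116 DESeq2 calls were false, against 5 of 75 by edgeR. Changes of 1.5-fold were recovered at 4.48% by edgeR and 13.4% by DESeq2. Few genes were changed in the simulation, whereas 30.4% were called in the real comparison. Its share of false calls therefore does not carry over to the real calls. The share of Lyz1 averaged 2.34% in advanced aortic macrophages and 0.190% in advanced monocytes, without overlap (exact permutation test, p = 0.0286, the smallest that 4 against 4 libraries allow; adjusted p = 0.0643). Advanced peritoneal macrophages averaged 2.68%, and the difference of -0.34 points from the aorta did not pass (exact permutation test, adjusted p = 0.804).

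The baseline and early values of the aorta are given beside the other populations without a test. At baseline aortic libraries (711.5 to 1074 CPM) and peritoneal libraries (411.9 to 823.3 CPM) overlapped in Lyz1, and both lay above monocytes (22.5 to 72.5 CPM). The share of Lyz1 at baseline was 11.1% to 15.3% in the aorta, 2.38% to 4.01% in the peritoneum and 0.288% to 0.582% in monocytes, so aortic and peritoneal libraries did not overlap in it. Early aortic libraries (79.3 to 174.8 CPM) lay below early peritoneal ones (569.8 to 2454 CPM) and above early monocytes (15.1 to 31.7 CPM).

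Within monocytes Lyz1 fell to 15.2, 21.2, 16.6 and 16.7 CPM in advanced libraries, against 33.6, 33.4, 22.5 and 72.5 CPM in baseline libraries, with no overlap. The log2 difference was -1.21 ± 0.37 (edgeR, adjusted p = 0.0311), in a comparison that called 19.0% of 9465 genes. Early libraries had 31.7, 16.1, 20.1 and 15.1 CPM, 3 of them below all baseline libraries. Early minus baseline was -0.97 ± 0.34 (adjusted p = 0.0812; 10.8% of genes called) and advanced minus early was -0.24 ± 0.40 (adjusted p = 0.793; 2.05% called), neither past the threshold. The advanced libraries held 20 to 28 Lyz1 reads each, and at equal depth the advanced minus baseline difference was -1.13 with an adjusted p of 0.0671. Thinned to that depth, Lyz1 had 16 to 70 reads in baseline and 13 to 20 in advanced libraries, which then overlapped. Without baseline replicate 4, the highest, it was -0.72 (adjusted p = 0.0647), and leaving out any 1 of the 4 advanced libraries also ended the call, at adjusted p-values up to 0.0758.

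Monocyte Lyz2 had 8148 to 9846 CPM in advanced, 7856 to 12046 CPM in early and 7797 to 12377 CPM in baseline libraries, which overlapped throughout. The log2 differences were -0.12 ± 0.17 for advanced minus baseline (95% interval -0.45 to 0.20, adjusted p = 0.654), 0.04 ± 0.17 for early minus baseline (-0.29 to 0.36, adjusted p = 0.925) and -0.16 ± 0.17 for advanced minus early (-0.48 to 0.17, adjusted p = 0.655). The Lyz1 share averaged 0.190% in advanced, 0.197% in early and 0.376% in baseline monocytes. At full depth neither diet group overlapped with baseline (exact permutation test, p = 0.0286 each, adjusted p = 0.0643 each). After thinning to equal depth both did. The shares then spanned 0.222% to 0.602% at baseline, 0.144% to 0.308% early and 0.171% to 0.233% advanced.

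In peritoneal macrophages the early libraries disagreed with each other. Lyz1 read 2169 and 2454 CPM in early replicates 1 and 2 and 569.8 and 748.5 CPM in early replicates 3 and 4, against 780.1, 746.5, 823.3 and 411.9 CPM at baseline. Replicates 1 and 2 lay above every other library of the series and replicates 3 and 4 within the baseline range. Early minus baseline was 1.12 ± 0.37 (adjusted p = 0.115; 1.79% of 9575 genes called), which did not pass. Advanced minus early was -0.81 ± 0.37 (adjusted p = 0.241; 1.33% called) and turned to 0.25 without early replicates 1 and 2. Advanced minus baseline was 0.30 ± 0.36 (adjusted p = 0.747, 95% interval -0.41 to 1.01; 0.898% called).

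The same early replicates 1 and 2 carried more of the monocyte chemokine receptor gene Ccr2, at 897 and 1311 CPM, against 3.17 to 48.0 CPM in the other 10 peritoneal libraries. Their 8 macrophage markers summed to 6112 and 5689 CPM, against 7268 to 9572 CPM in the other 10. Their 8 monocyte markers summed to 1462 and 2115 CPM, against 301.8 to 1404 CPM in the other 10. The library at 1404 CPM, advanced replicate 4, had 1002 CPM of Lyz1 and 3.17 CPM of Ccr2, and the coagulation factor gene F13a1 made up 1334 CPM of its sum. F13a1 did not follow Ccr2, with 394.8 and 543.3 CPM in early replicates 1 and 2, against 834.3, 609.8, 598.1 and 222.0 CPM at baseline. The classical monocyte marker Ly6c2 and the patrolling monocyte marker Treml4 were low in all 12, at most 4.37 CPM and 1.17 CPM. The monocyte libraries, from blood and spleen, held 15.1 to 72.5 CPM of Lyz1, and monocytes of the peritoneum were not measured separately. Retnla, which encodes a protein secreted by macrophages under type 2 cytokines, read 1717 and 3759 CPM in replicates 1 and 2, against 18.7 to 221.0 CPM elsewhere in the peritoneum. The part of these cells in the Lyz1 level was not tested.

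**Figure D4:**
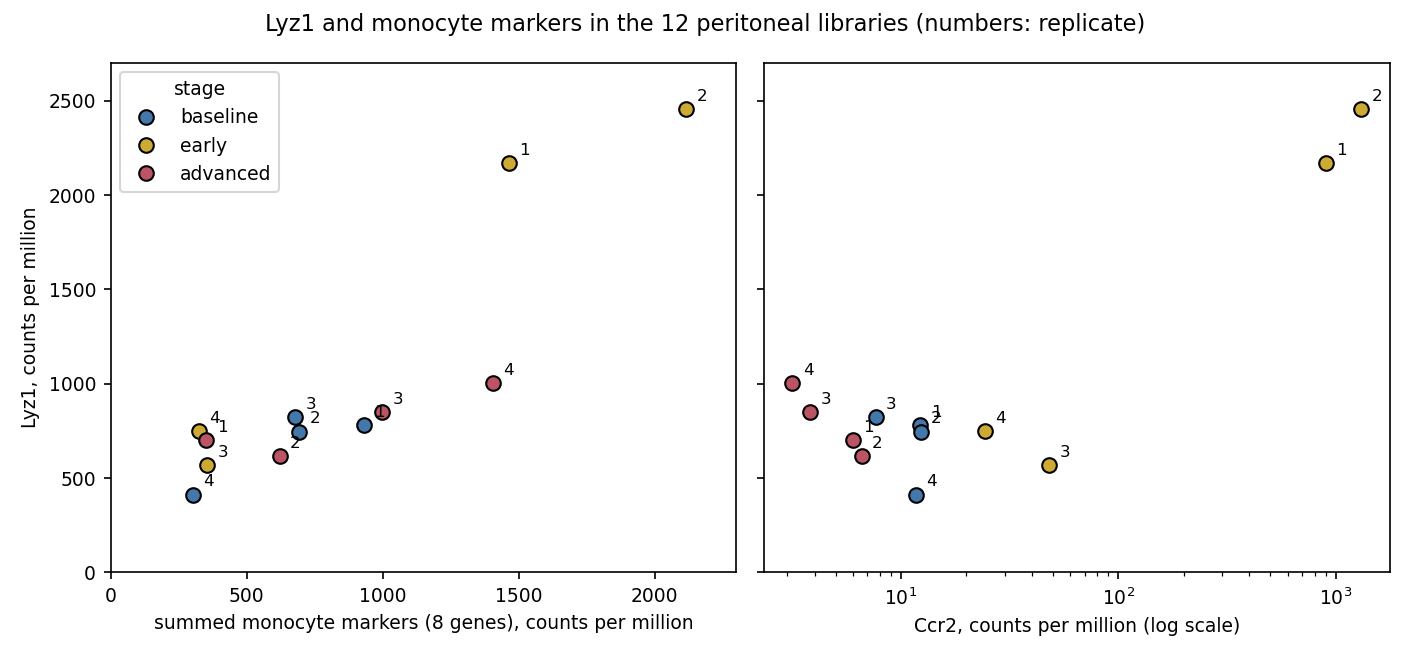
Lyz1 against the summed level of 8 monocyte markers (left) and against Ccr2 on a log axis (right), all in CPM, for the 12 peritoneal libraries, with the replicate number beside each point and the stage as colour. Early replicates 1 and 2 lie apart, at 2169 and 2454 CPM of Lyz1 and 897 and 1311 CPM of Ccr2; the other 10 libraries lie between 411.9 and 1002 CPM of Lyz1.

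Peritoneal Lyz2 did not follow that split. The early libraries had 29022, 17762, 24608 and 27111 CPM, the baseline libraries 19793, 19376, 19691 and 16923 CPM, and they overlapped. All 4 advanced libraries, from 23304 to 32931 CPM, lay above all baseline libraries. Advanced minus baseline was 0.68 ± 0.19 (edgeR, adjusted p = 0.0954), which did not pass, while DESeq2 gave 0.68 with an adjusted p of 0.0056. In counts simulated for peritoneal early minus baseline, 18 of 153 DESeq2 calls were false, against 3 of 129 by edgeR. There edgeR recovered 13.4% of 1.5-fold changes and DESeq2 25.4%, so a change of that size would often be missed. Early minus baseline was 0.42 ± 0.19 (adjusted p = 0.214) and advanced minus early 0.26 ± 0.19 (adjusted p = 0.473). The share of Lyz1 was 6.96% and 12.1% in early replicates 1 and 2 and 2.26% and 2.69% in replicates 3 and 4. It was 2.57%, 2.57%, 2.52% and 3.05% at the advanced stage and 3.79%, 3.71%, 4.01% and 2.38% at baseline. No peritoneal stage difference in share passed (exact permutation tests, adjusted p = 0.514, 0.514 and 0.257 for early minus baseline, advanced minus early and advanced minus baseline). With 4 against 4 libraries even groups without overlap had an adjusted p of 0.0643 in this family of 9.

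The diet responses of peritoneal macrophages and monocytes were compared directly. For Lyz1 the early minus baseline response was 2.10 ± 0.56 log2 units higher in peritoneal macrophages than in monocytes (interaction term in edgeR, adjusted p = 0.0417; 2.78% of 10343 genes called). Without the libraries that stood apart, which include peritoneal early replicates 1 and 2, it was 1.07 (adjusted p = 0.381), and at equal depth 1.86 (adjusted p = 0.146). With the replicate number as a block it was 2.02 (adjusted p = 0.0723), and leaving out 1 library ended the call for 11 of 16. That block joins libraries of different stages under the same number, although they come from mice on different diets. For advanced minus baseline the response in Lyz1 differed by 1.52 ± 0.58 (adjusted p = 0.207; 2.30% called) and in Lyz2 by 0.82 ± 0.26 (adjusted p = 0.101). The early response in Lyz2 differed by 0.40 ± 0.26 (adjusted p = 0.480). The interaction was not tested for the share.

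**Figure D5:**
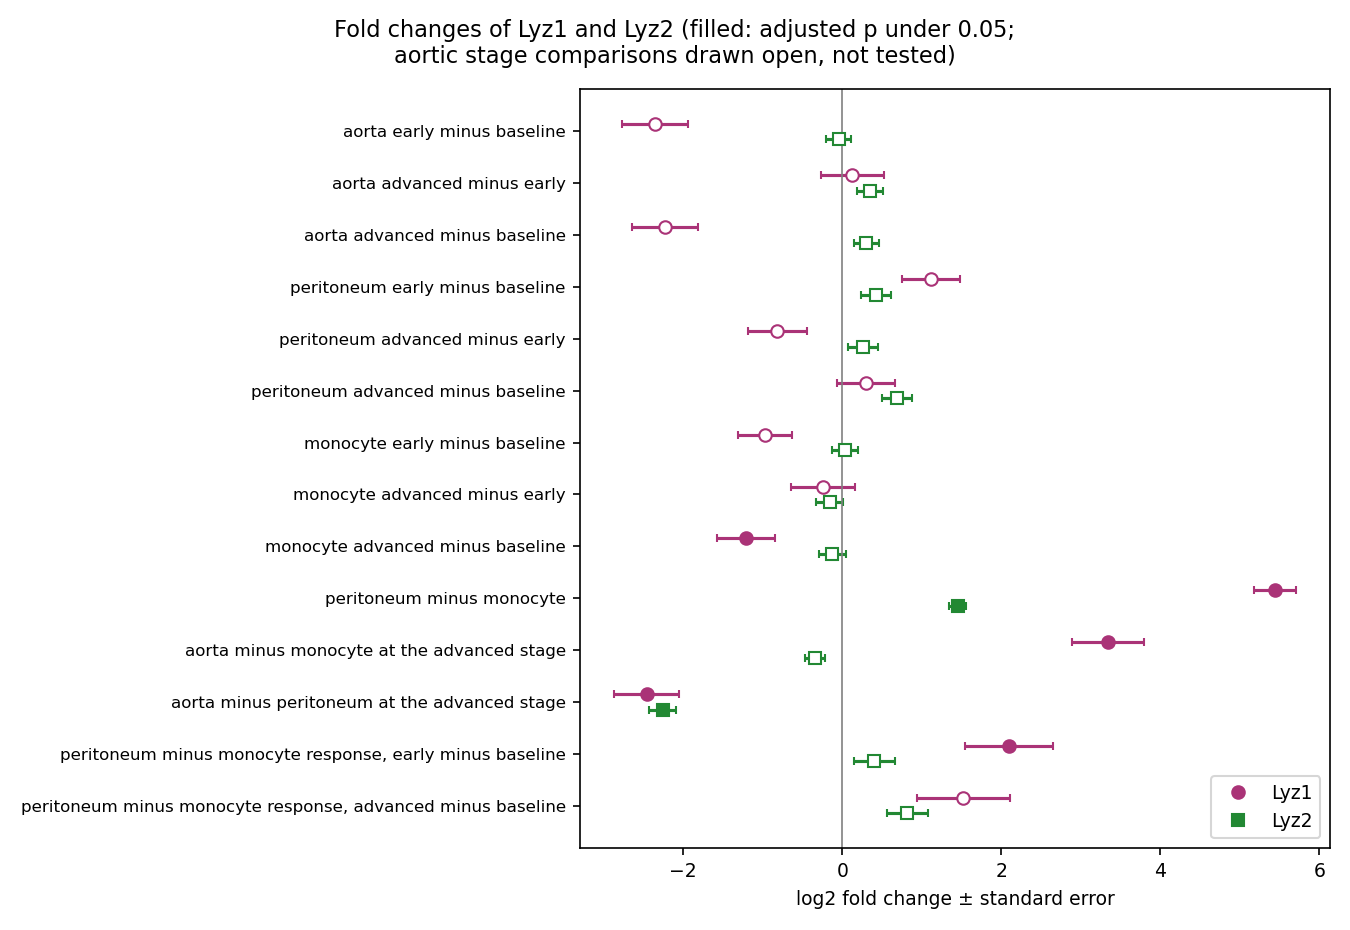
Log2 fold changes with standard errors of Lyz1 (circles) and Lyz2 (squares) in 14 comparisons, each named with its first group minus its second; filled symbols have an adjusted p under 0.05, and the aortic stage comparisons are drawn open because they were not tested. Lyz1 differs by 5.44 between peritoneal macrophages and monocytes, Lyz2 by 1.45.

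Other members of the lysozyme family added almost no reads. Of 8 such genes in the files, 6 had no count in any library, Lalba (alpha-lactalbumin, a milk protein of the family) had 3 counts in 2 libraries and Lyzl4 had 33 counts in 1 library. 9530003J23Rik, the family member on the far side of Lyz2 (RefSeq synonym Lyzf1), had 0 counts in all 36 libraries. Cpsf6, a factor of mRNA 3′ end processing on the far side of Lyz1, read 46.9 to 196.9 CPM. Its log2 level correlated with that of Lyz1 at 0.00 and of Lyz2 at 0.12 across the 36 libraries, which share population and depth. Lyz1 and Lyz2 themselves correlated at 0.43 over all libraries, 0.15 in the aorta, 0.14 in the peritoneum (0.58 without early replicates 1 and 2) and 0.62 in monocytes (12 libraries each).

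The genes whose levels ran most like Lyz1 over the 36 libraries, by Pearson correlation of log2(CPM + 1) among 6455 genes, were Dapk1 (0.94), Ltc4s (0.93), Adam15 (0.91), Timd4 (0.91) and Baiap2 (0.91). Ltc4s, which makes leukotriene C4, had 157 ± 78.0 CPM in baseline, 45.6 ± 17.2 CPM in early and 38.5 ± 5.42 CPM in advanced aortic libraries. Timd4, a phosphatidylserine receptor of resident macrophages, had 134 CPM at baseline, 114 CPM early and 80.1 CPM advanced in the aorta. Over the 24 monocyte and peritoneal libraries the closest were Bcam (0.98), Dapk1 (0.97), Rnf141 (0.97), Fabp7 (0.97) and Retnla (0.97). For Lyz2 they were Icam2 (0.94), Emilin2 (0.93), Naip1 (0.93), Itgb2 (0.93) and Mst1r (0.92) over 36 libraries, and Edil3 (0.95), Gnai3 (0.94), Cryl1 (0.94), Gbp2b (0.94) and Cd209b (0.93) over 24. Itgb2, the beta chain of the leukocyte integrins, had 1873 CPM in advanced peritoneal, 857 CPM in advanced monocyte and 426 CPM in advanced aortic libraries. The libraries of a population lie close together in these levels, and so are not independent points.

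Other antibacterial effectors of phagocytes were 19 genes in the files. Of 16 tested between peritoneal macrophages and monocytes, 6 were higher and 8 lower, with a median log2 difference of -0.34 against -0.02 over all genes, of which 32.5% were higher and 34.6% lower. Slpi, a protease inhibitor with antibacterial activity, had a log2 difference of 5.30 ± 0.23 (adjusted p = 4.42e-16) and the pore-forming Mpeg1 one of -1.40 ± 0.07 (adjusted p = 1.25e-14). In advanced against baseline monocytes 4 of 16 rose and 1 fell, where 19.0% of all genes were called. The iron-chelator carrier Lcn2 rose by 4.65 ± 0.62 (adjusted p = 3.04e-04), alongside the neutrophil markers given above. The phagosomal metal transporter Slc11a1 changed by -0.71 ± 0.13 (adjusted p = 0.00248). In the aorta 1 of 14 rose from the list for advanced minus baseline (0.585% of all genes called), Mpeg1 at 1.29 ± 0.22 (adjusted p = 0.00476), and none passed for early minus baseline (0.373% called). The low recovery of simulated aortic changes given above limits what these counts can show.

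Genes listed for peptidoglycan fragments, the product of lysozyme, were 16 in the files and 15 in each test. Among them were sensors, transporters and shared signalling genes such as Tab2, Tab3, Map3k7 and Xiap. In peritoneal macrophages against monocytes none was higher and 12 of 15 were lower, against 32.5% and 34.6% of all genes, with a median of -0.46 against -0.02 over all genes. The signalling gene Tab2 differed by -1.29 ± 0.09 (adjusted p = 1.64e-12). The cytosolic sensor Nod2 differed by -1.90 ± 0.13 (adjusted p = 2.45e-12) and the transporter Slc46a3 by -3.001 ± 0.20 (adjusted p = 2.46e-12). In advanced against baseline monocytes 5 of 15 fell and none rose (9.75% of all genes fell), among them the transporter Slc15a3 at -0.88 ± 0.15 (adjusted p = 0.00114) and the sensor Nod1 at -0.53 ± 0.13 (adjusted p = 0.0130). Advanced aortic macrophages against advanced peritoneal macrophages had 3 higher and 3 lower of 15 (27.7% of all genes called), with the lipoprotein receptor Tlr2 at 2.79 ± 0.17 (adjusted p = 3.49e-07) and Nod1 at -1.39 ± 0.18 (adjusted p = 1.37e-04). Against advanced monocytes 3 were higher and 7 lower (30.4% of all genes called). For aortic stages 1 of 15 rose for advanced minus baseline (0.585% called), the inflammasome sensor Nlrp3 at 2.32 ± 0.45 (adjusted p = 0.0153).

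Of 16 transcription factors of myeloid genes, 5 were higher and 9 lower in peritoneal macrophages than in monocytes, beside 32.5% and 34.6% of all genes, with a median log2 difference of -1.05 against -0.02 over all genes. Irf8, a factor of monocyte development, differed by -1.97 ± 0.15 (adjusted p = 1.69e-11). In advanced against baseline monocytes 3 of 15 rose and 3 fell (19.0% of all genes called), with the granulocyte factor Cebpe at 3.30 ± 0.67 (adjusted p = 0.00396) and Irf8 at -0.79 ± 0.15 (adjusted p = 0.00282). In aortic macrophages Cebpb, a factor of inflammatory genes, was the 1 of 14 called for early minus baseline (0.373% of all genes called), at 2.28 ± 0.46 (adjusted p = 0.0312).

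Among 10 pairs of related genes, only Lyz1 with Lyz2 and the actin genes Actb with Actg1 had at least 20 counts of each gene in every library. The mean share of Actb in the reads of its pair lay between 90.9% and 96.7% in the 9 groups, against 0.190% to 12.5% for Lyz1 in its own. Sequence identity was measured for the lysozyme pair only. The actin share therefore does not show how reads that fit both copies were divided.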

How the data were processed

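The authors deposited raw read counts per gene for each library; reads were aligned with STAR and counted with featureCounts on mm10, per the submitters' processing notes, and library kit and paired-end sequencing are per the labels' protocols. Libraries were grouped by tissue and diet as labelled. Lyz1 and Lyz2, the gene lists and the libraries treated as standing apart were chosen with earlier results of these data known. Counts were tested with edgeR 4.0.16 (TMM, filterByExpr, quasi-likelihood, two-sided, Benjamini-Hochberg over all genes tested; threshold 0.05) in R 4.3.3, with 1 fit per population, 1 over peritoneum and monocytes, and 1 for each advanced aortic comparison. CPM are counts over library totals. Shares were compared with exact permutation tests (SciPy 1.17.1) and given exact Clopper-Pearson intervals; intervals cover counting error only. Named genes were Lyz1, Lyz2, their neighbours, the 5 most correlated genes with a mean of at least 20 CPM, and up to 4 list members of smallest p per comparison. Alternatives were DESeq2 1.42.0, DESeq2 size factors in edgeR, no filter, a replicate block, thinning to the shallowest library and leaving out libraries. The same fits were tested on simulated counts with few changed genes, where DESeq2 made more false calls than edgeR in every comparison simulated. Transcripts came from GENCODE, promoters and neighbours from RefSeq. In 13 of 14 pairings not every same-numbered pair correlated over 0.1 in its deviations (the exception was peritoneum with monocytes at baseline). The numbers were therefore not used as pairs. Pairings between stages join mice on different diets, so the check does not settle whether populations shared mice.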

Additional observations from a re-analysis of the deposited data

Results flagged for a closer look

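Among 27 combinations of group and measure, 6 had 1 library far from the other 3, where chance gives about 1 in 20. The share is computed from the same counts as the levels, so the combinations are not independent. No excess over chance is read from their number. Lyz1 stood high in aortic baseline replicate 1 at 1074 CPM and in aortic advanced replicate 1 at 346.6 CPM. In the share of Lyz1 the high libraries were aortic advanced replicate 1 at 4.69%, peritoneal advanced replicate 4 at 3.05% and monocyte baseline replicate 4 at 0.582%. Lyz2 stood low in peritoneal baseline replicate 4 at 16923 CPM. The early response of Lyz1 differed by 2.10 log2 units between peritoneal macrophages and monocytes in a test of the difference itself (edgeR, adjusted p = 0.0417). That call was lost with the replicate block (adjusted p = 0.0723), at equal depth (0.146), without the libraries that stood apart (1.07, adjusted p = 0.381) and for 11 of 16 libraries left out.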

How the results depend on the processing

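Of 1030 values recomputed under an alternative, 865 kept their direction and their side of the threshold, or, for numbers of genes called, stayed within 1.5 times; 96 lost strength, 52 gained, 4 moved and 13 changed sign. The differences of Lyz1 between peritoneal macrophages and monocytes and between advanced aortic macrophages and both other populations stayed called under every alternative run. The alternative without the libraries that stood apart was chosen after seeing the data. Causes were not tested.

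In 13 of 14 pairings not every same-numbered pair correlated over 0.1 in its deviations. The exception was peritoneum with monocytes at baseline, where all 4 pairs lay between 0.108 and 0.223. Pairings between stages join mice on different diets and say nothing on shared mice. Against monocytes, 4, 3 and 1 of 4 peritoneal libraries correlated best with their own number at baseline, early and advanced stages. For advanced aorta it was 3 against monocytes and 2 against peritoneum. Whether populations shared mice is not settled by this check. Over all pairings the correlations of deviations lay between -0.28 and 0.22. A fit with the replicate block changed 6 of 64 results. In fits over several stages the block joins libraries of mice on different diets by number, so it matches no known unit there. Lyz1 for advanced minus baseline in monocytes became -1.10 (adjusted p = 0.0515) and the early interaction 2.02 (adjusted p = 0.0723). With the block the genes called were 114 for advanced minus early in monocytes, and 43, 39 and 14 for early minus baseline, advanced minus early and advanced minus baseline in the peritoneum. It changed no other call.

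For Lyz1 in monocytes, early minus baseline passed without a filter on low counts (-0.99, adjusted p = 0.0370), and leaving out 1 library gave -1.26 to -0.47. Advanced minus baseline failed at equal depth (-1.13) and without the libraries that stood apart (-1.21), and 1 library less gave -1.42 to -0.72. Advanced minus early ran from -0.38 to 0.0452. In peritoneal Lyz1, early minus baseline passed with DESeq2 (1.11, adjusted p = 0.0395) and ran from 0.79 to 1.37 with 1 library less. Advanced minus early turned to 0.25 without the libraries that stood apart. The early interaction of Lyz1 failed at equal depth (1.86) and without those libraries (1.07), and ran from 1.60 to 2.39, with the call lost for 11 of 16 libraries left out. In the aorta Lyz1 for advanced minus early became -0.55 and for advanced minus baseline -3.004 without the libraries that stood apart; with 1 library less they ran from -0.56 to 0.34 and from -2.92 to -2.02.

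Lyz2 for early minus baseline in monocytes ran from -0.0905 to 0.17 and for advanced minus baseline from -0.25 to 0.0132; with both genes summed they ran from -0.0939 to 0.17 and from -0.25 to 0.0113. DESeq2 called Lyz2 for advanced minus baseline in the peritoneum (0.68; summed 0.67) and for the advanced interaction (0.81; summed 0.80), which ran from 0.68 to 0.95 (summed 0.67 to 0.94) with 1 library less. Lyz2 for advanced aorta minus monocytes passed with DESeq2 (-0.38; summed -0.35), with its size factors in edgeR (-0.38) and at equal depth (-0.38), and ran from -0.42 to -0.32 (summed -0.38 to -0.29).

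Without the libraries that stood apart, the share of Lyz1 changed sign in the peritoneum for early minus baseline (-0.998 points) and advanced minus early (0.20 points). In monocytes the share for advanced minus early ran from -0.0245 to 0.0146 points.

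The number of genes called moved more. DESeq2 called 435 for advanced minus early in monocytes, and 683, 542 and 467 in the peritoneum and 341, 26 and 294 in the aorta for early minus baseline, advanced minus early and advanced minus baseline; it called 519 and 416 for the early and advanced interactions. Without a filter the numbers were 373 for advanced minus early in monocytes, 434 and 266 for early minus baseline and advanced minus early in the peritoneum, and 151, 40 and 165 in the aorta. At equal depth they were 543 and 1049 for early and advanced minus baseline in monocytes, 85 and 34 in the peritoneum, 59 and 90 in the aorta with 9 for advanced minus early, and 33 and 76 for the interactions. Without the libraries that stood apart they were 91 and 1182 for advanced minus early and advanced minus baseline in monocytes, 88 for early minus baseline in the peritoneum, 114, 34 and 173 in the aorta, 44 for the early interaction and 4150 for advanced aorta minus peritoneum. With 1 library less the numbers ran, for early minus baseline, advanced minus early and advanced minus baseline, from 548 to 1268, 34 to 321 and 1182 to 1732 in monocytes, from 4 to 625, 5 to 419 and 3 to 119 in the peritoneum, and from 12 to 120, 0 to 2 and 32 to 154 in the aorta. They ran from 49 to 526 and 69 to 276 for the interactions, and from 2306 to 4219 and 2157 to 4150 for advanced aorta minus monocytes and minus peritoneum. Without aortic early replicate 3 or aortic advanced replicate 3 edgeR called 0 genes for advanced minus early, against 4 called in the full set. In the full set 354 of 9920 genes had an unadjusted p under 0.05.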
